A study of Mus musculus with 10 samples.

Results

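The comparison described here sets liver RNA of TgSREBP-1a mice against liver RNA of their wild type littermates. TgSREBP-1a mice carry a transgene for the nuclear, transcriptionally active form of human SREBP-1a. Both groups were males of 12 to 16 weeks that had eaten a diet high in protein and low in carbohydrate for 2 weeks, a diet the series' design text says was given to drive the transgene strongly. Within each group equal parts of RNA from 5 mice were mixed into a single 20 µg pool, which was labelled and hybridised on 2 Affymetrix MG_U74Av2 arrays. The 4 arrays compared are part of 10 in the study. Of the other 6, 2 hold TgSREBP-2 livers (nuclear human SREBP-2, same age, diet and littermate controls). The last 4 hold the livers of Scap-/-;MX1-Cre mice, which lack the SREBP escort protein SCAP in liver, and their wild type controls. These last animals were 10 to 12 weeks old, ate chow, and were killed 14 days after the last of 4 injections of polyinosinic-polycytidylic acid, which induces the Cre recombinase. The study's title states the aim of finding genes that SREBPs target directly, by setting transgenic beside knockout animals.

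The genes compared were all those named by a probe set with 1 gene symbol, each represented by its brightest probe set over the 10 arrays. They number 8251, from 12488 probe sets on the array, and all 8251 were tested, with no filter on low signals. Values per array are log2 signals, wild type first unless stated, and an error after a log2 difference is the standard error of the limma fit with n = 2 arrays per group. Because the 2 arrays of a group are hybridisations of 1 pool, the p-values measure the spread between hybridisations. They compare 1 pool of mice with another and carry no error between mice. A gene is said to have risen or fallen where its adjusted p was under 0.05 and its difference at least 1.5-fold. As in any bulk tissue, fewer cells of a type and less RNA per cell cannot be told apart here.

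SREBPs are transcription factors made as membrane proteins of the endoplasmic reticulum. When sterols are scarce, SCAP escorts them to the Golgi, where proteases release the nuclear part. That part enters the nucleus, binds sterol regulatory elements, often beside binding sites of NF-Y and Sp1, and turns on the genes of cholesterol and fatty acid synthesis. SREBP-1a acts strongly on both pathways, whereas SREBP-1c, the main SREBP-1 of adult liver, acts mostly on fatty acid synthesis and SREBP-2 mostly on cholesterol synthesis. A transgene for the nuclear part skips the escort step and is not held back by sterols. The labels do not name the promoter of the transgene. In these mouse lines it is known to be that of the gluconeogenic enzyme phosphoenolpyruvate carboxykinase, which a diet poor in carbohydrate activates.

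In the TgSREBP-1a pool 394 genes rose (4.78% of the 8251 tested) and 214 fell (2.59%), together 608 or 7.37%. At least 4-fold, 41 were higher and 24 lower, and at least 8-fold, 11 were higher and 9 lower. The median gene differed by -0.03 log2. Of the 25 largest increases, 15 belong to the lists of lipid synthesis and NADPH supply. Of the 25 largest decreases, 7 are in the list of exocrine pancreas markers. Clps, the pancreatic colipase, and Zg16, a zymogen granule protein, are outside that list and fell too (-2.75 and -2.31). In 4254 genes (51.6%) the arrays of the groups did not overlap, so that separation alone says little about a gene.

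**Figure D1:**
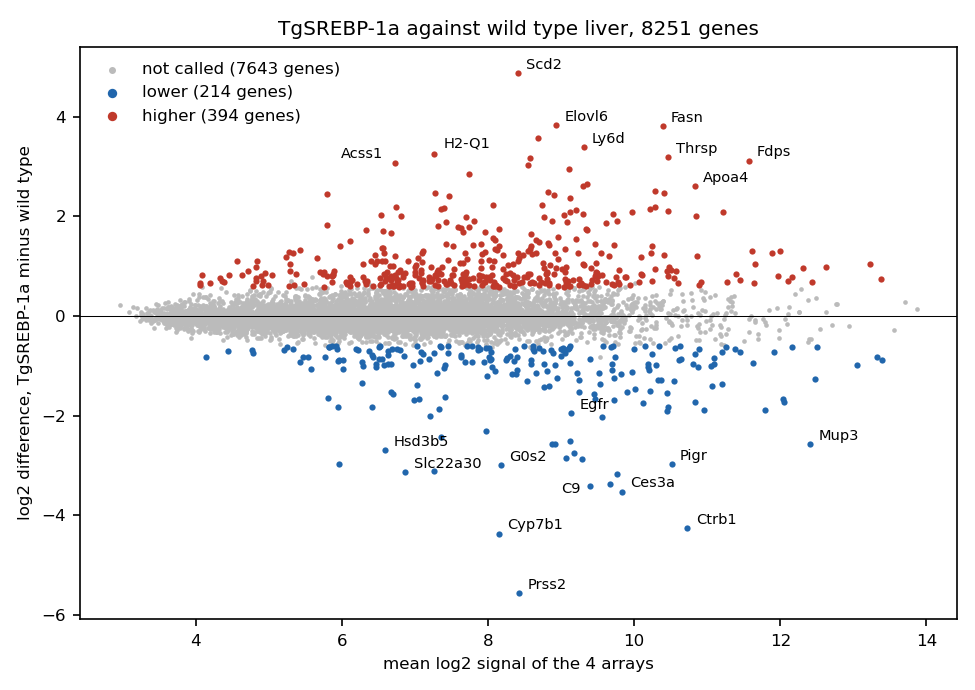
Each point is 1 of 8251 genes, with its mean log2 signal over the 4 arrays on the x axis and its log2 difference, TgSREBP-1a minus wild type, on the y axis. Coloured points mark the 394 genes that rose and the 214 that fell. Scd2 is highest at 4.87 and Prss2 lowest at -5.56.

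Facts of the whole set bear on these counts. Duplicate arrays correlated at 0.9921 in TgSREBP-1a and 0.9924 in wild type over genes, and 151 and 101 genes were at least 1.5-fold apart between duplicates. Albumin, the defining marker of the labelled tissue, read between 13.48 and 13.85 on all 10 arrays. The summed linear signal of 10 hepatocyte markers was 47900 to 51130 in TgSREBP-1a against 57630 to 60530 in wild type, with a median difference of -0.41 log2. Hp, haptoglobin, alone made up 8587 to 9088 of the wild type sum and 3588 to 3731 of the TgSREBP-1a sum, and without it the sums were 44310 to 47400 against 49040 to 51440. Of the 10 markers Ahsg, Alb, Fgb, Hp and Ttr are also in the lists of acute phase or coagulation genes below, so the marker sum and those lists partly hold the same values. The median difference was -0.56 over these 5 markers and -0.28 over the other 5. Among these 10, Hp, Ttr and Apob fell, Apob only from 9.55 and 9.31 to 8.89 and 8.68. Its call ended when TgSREBP-1a replicate 2 (-0.54) or wild type replicate 1 (-0.52) was left out, and Ahsg and Fgb fell as well (-0.62 and -0.65) without replicate 1 of TgSREBP-1a. When the arrays were centred on these markers, the median of all genes became 0.39, 1646 genes rose (19.9%) and 87 fell (1.05%), so the share of called genes that rose went from 64.8% to 95.0%. The direction of a modest change, and of any list made of them, therefore rests on the choice of centring, and the counts of the lists below are given under this centring too where they differ. Without replicate 1 of TgSREBP-1a, 311 genes rose and 253 fell, and without its replicate 2, 535 rose and 199 fell.

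Cholesterol synthesis rose at nearly every measured step. In the first stage, from acetyl units to squalene, 5 of 7 measured genes rose, none fell, and the median difference was 2.23 log2. Hmgcs1, which makes HMG-CoA, read 7.26 and 6.74 in wild type and 10.46 and 9.86 in TgSREBP-1a (8.94-fold, adjusted p = 3.15e-06). Idi1, the isomerase that activates the isoprene unit, went from 7.96 and 8.10 to 10.74 and 10.64 (6.3-fold, adjusted p = 1.5e-08). Fdps, which joins isoprene units to farnesyl diphosphate, went from 9.99 and 10.03 to 13.11 and 13.14 (8.66-fold, adjusted p = 2.58e-09). In these 3 genes the lowest TgSREBP-1a array lay more than 2 log2 units above the highest wild type array. Fdft1, squalene synthase, read 7.85 and 7.41 against 9.92 and 9.80, and Mvd, the mevalonate decarboxylase, read 7.16 and 7.42 against 8.81 and 8.90. The exceptions were mevalonate kinase Mvk, at 8.15 and 8.36 against 8.32 and 8.47, and Ggps1, which leads to geranylgeranyl diphosphate for prenylation rather than to sterols, at 6.10 and 6.06 against 6.02 and 5.88. Neither of these passed the test. The rises of this stage are over the wild type pool on the high-protein diet. Against chow-fed wild type, which also differed in age and injections, that pool was lower in Hmgcs1 (-2.57), Idi1 (-2.51), Fdps (-2.06), Fdft1 (-1.72) and Mvd (-0.88). Mvk and Ggps1 were not called between the wild type pools.

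From squalene to cholesterol all 11 measured genes rose, with a median of 1.79 log2 and 9 to 11 called when 1 array was left out. Sqle, the squalene epoxidase and a rate-limiting step, read 7.83 and 7.73 in wild type and 9.91 and 9.63 in TgSREBP-1a (3.98-fold, adjusted p = 1.16e-06). Lss, which closes the sterol rings, went from 7.74 and 7.64 to 10.15 and 10.09 (5.39-fold), and Cyp51, the first demethylase of lanosterol, from 6.52 and 6.02 to 8.89 and 8.46 (5.3-fold). Dhcr7, which makes the last double-bond reduction, had the largest change of the stage, from 6.53 and 6.09 to 9.32 and 9.01 (7.23-fold, adjusted p = 4.53e-06). Msmo1, Nsdhl and Sc5d, enzymes of the C4 demethylation and the C5 desaturation, rose 3.46-, 5.18- and 3.22-fold. In TgSREBP-1a Msmo1 read 8.84 and 8.42, under the 9.32 and 9.40 of chow-fed wild type. Nsdhl read 10.37 and 10.26 in TgSREBP-1a and 10.13 and 10.26 in chow-fed wild type. The second probe set of Nsdhl also rose, but by 0.95 log2. Smaller increases came from Tm7sf2 (0.72 ± 0.09), Ebp (0.69 ± 0.13), Lbr (0.62 ± 0.12) and Hsd17b7 (0.60 ± 0.13). Lbr fell short of 1.5-fold without replicate 1 of TgSREBP-1a (0.46) or replicate 2 of wild type (0.56), and Hsd17b7 without replicate 1 of either pool (0.44 and 0.52).

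Fatty acid synthesis rose from its substrate onward. Of 8 measured genes of acetyl-CoA supply and fatty acid synthase 6 rose and none fell, with a median of 1.85 log2. Fasn, the fatty acid synthase, read 8.65 and 8.32 on the wild type arrays and 12.29 and 12.29 on the TgSREBP-1a arrays (13.9-fold, adjusted p = 5.11e-09). Acly, which cleaves cytosolic citrate to acetyl-CoA, went from 9.14 and 8.93 to 11.61 and 11.47 (5.67-fold), and Slc25a1, the carrier that brings that citrate out of the mitochondrion, from 9.66 and 9.35 to 10.79 and 10.60 (2.29-fold). Acss1, a mitochondrial enzyme that activates acetate, went from 5.30 and 5.08 to 8.55 and 7.99 (8.44-fold, adjusted p = 4.52e-07). Thrsp, a lipogenic protein of the cytosol and nucleus, went from 8.98 and 8.75 to 12.12 and 11.997 (9.15-fold). Slc25a10, the dicarboxylate carrier, rose by 0.59 ± 0.08, but under 1.5-fold without replicate 2 of either pool (0.58 and 0.57). Oxsm, of the separate mitochondrial fatty acid synthesis, and Mlycd, which destroys malonyl-CoA, differed by -0.09 and 0.08 and were not called.

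The enzymes that lengthen and desaturate the products did not move as 1 block: of 12 measured, 6 rose and 1 fell. Scd2, a stearoyl-CoA desaturase that is scarce in adult mouse liver, went from 5.95 and 5.9995 to 10.97 and 10.73, or 29.3-fold (adjusted p = 3.64e-10), and its second probe set rose by 3.54 log2. Scd1, the desaturase that dominates in liver, was already at 12.81 and 12.61 in wild type and reached 13.81 and 13.67 (2.05-fold, adjusted p = 2.61e-05). These near-identical paralogs could share probes, so the split between them is uncertain. Elovl6, which extends palmitate to stearate, went from 6.98 and 7.06 to 10.97 and 10.71 (14.1-fold, adjusted p = 8.63e-09). Fads1 and Elovl5, which work on polyunsaturated fatty acids, rose 4.28- and 2.48-fold, and Cyb5r3, which passes electrons to the desaturases, 1.86-fold. Elovl1 differed by 0.0029, and Elovl2 by 0.46 ± 0.21, which did not pass. Elovl3, an elongase of very long chains with male-biased expression in mouse liver, was the 1 that fell, from 5.81 and 5.94 to 4.79 and 5.33 (-0.81 ± 0.15). It was at -0.54 and not called without replicate 1 of TgSREBP-1a, and not called with hepatocyte centring (-0.40), when 8 genes of the list rose and none fell.

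NADPH, the reductant of both pathways, comes from malic enzyme, isocitrate dehydrogenase and the pentose phosphate pathway. Of 9 measured genes 5 rose and 1 fell, and with hepatocyte centring 7 rose and 1 fell. Me1, the cytosolic malic enzyme, read 7.01 and 6.79 in wild type and 10.61 and 10.31 in TgSREBP-1a (11.8-fold, adjusted p = 3.6e-08). Chow-fed wild type read 9.62 and 9.69 for Me1. Pgd, of the oxidative pentose phosphate branch, rose 4.25-fold on its brightest probe set, while its second differed by -0.02 log2. Tkt and Taldo1, of the non-oxidative branch, went from 8.52 and 8.24 to 9.70 and 9.76 and from 7.36 and 7.28 to 8.66 and 8.55 (2.55- and 2.44-fold). Idh1, the cytosolic isocitrate dehydrogenase, went from 8.57 and 8.31 to 9.71 and 9.11 (1.95-fold). H6pd, the enzyme that makes NADPH inside the endoplasmic reticulum rather than in the cytosol, moved the other way, from 11.40 and 11.37 to 10.38 and 10.36 (2.02-fold lower, adjusted p = 6.66e-06). Chow-fed wild type read 10.56 and 10.67 for H6pd and 9.28 and 9.31 for Idh1, between its TgSREBP-1a arrays. It read 9.05 and 9.03 for Tkt, 8.11 and 8.14 for Taldo1 and 8.74 and 8.81 for Pgd, each under both TgSREBP-1a arrays.

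**Figure D2:**
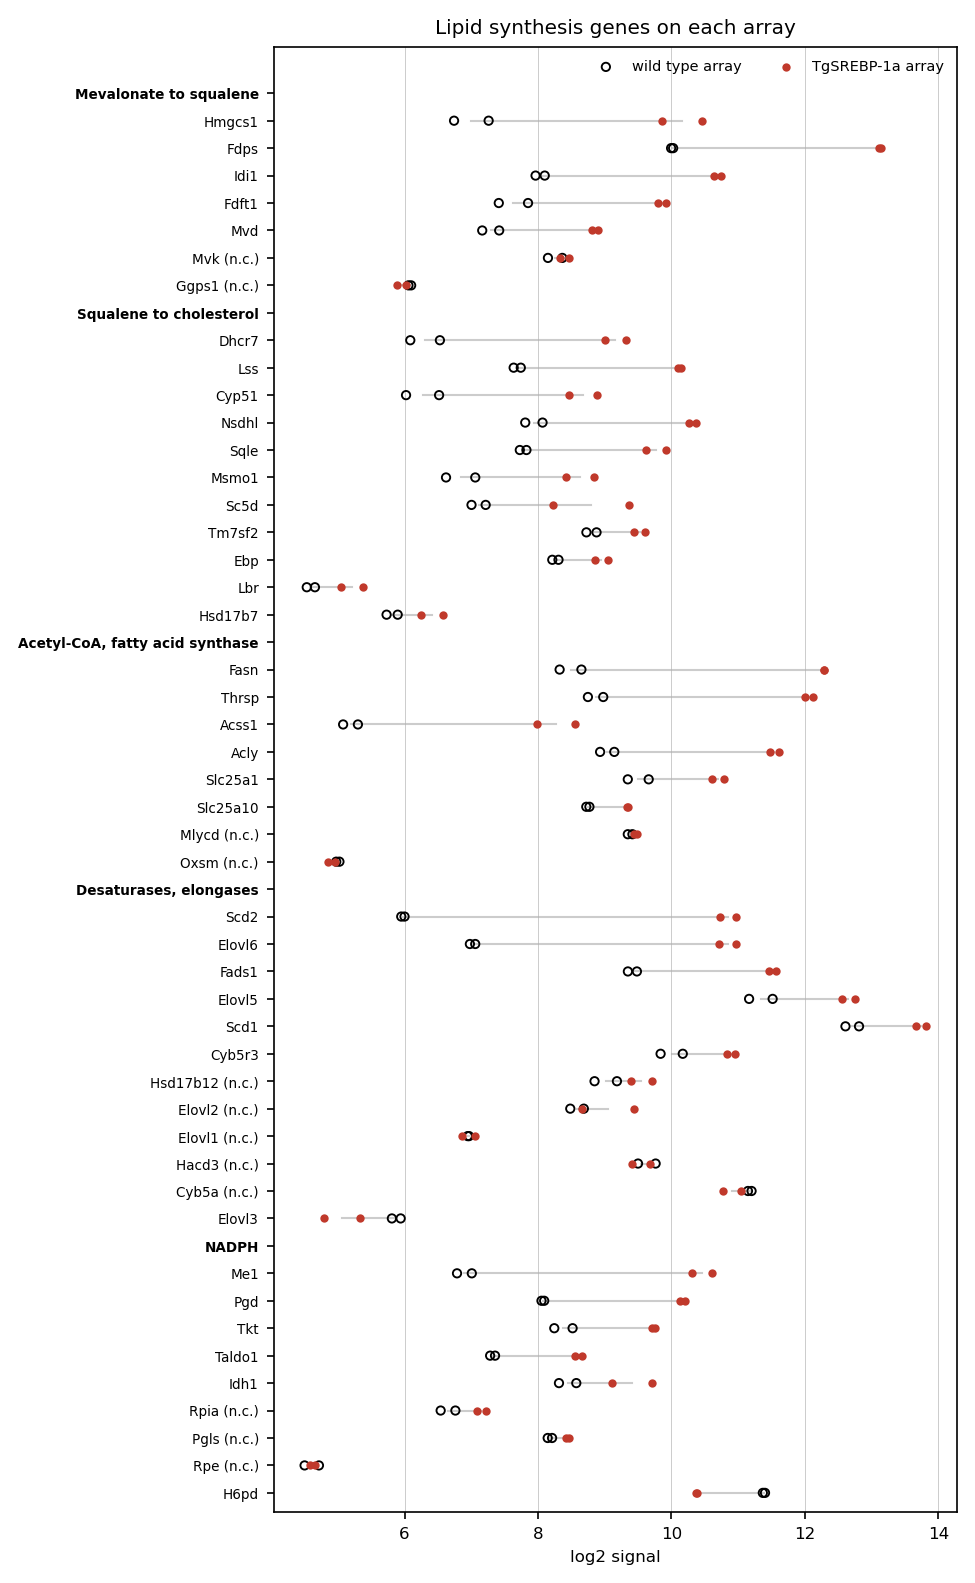
Each row is 1 measured gene of cholesterol synthesis, fatty acid synthesis or NADPH supply, with its log2 signal on the x axis for the 2 wild type arrays (open circles) and the 2 TgSREBP-1a arrays (filled circles) and a line between the group means. Genes marked n.c. were not called. The longest line is that of Scd2, and the lines of Elovl3 and H6pd run the other way.

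Most of the listed lipid synthesis and NADPH genes that rose hold a short motif near a start site. RefSeq promoter entries, from 250 bases before to 50 after a start site on build GRCm38.p6, matched 6576 of the 8251 genes by symbol. They were searched on both strands for the SRE core TCACNCCAC, the E-box CACGTG, the CCAAT box CCAAT (NF-Y) and the GC box GGGCGG (Sp1). A CCAAT box stood in at least 1 entry of 23 of the 26 lipid synthesis and NADPH genes that rose and have an entry (88.5%), against 42.5% of all 6576 genes. Among all genes that rose the share was 47.7%, among genes that fell 43.6% and among genes not called 42.2%. The GC box stood in 84.6% of the 26 and 63.0% of all, and the E-box in 19.2% and 11.5%. The strict SRE core stood in 1 of the 26 (3.85%) and in 1.64% of all, and in 1.24% of the 32851 RefSeq entries. Genes can have several entries, so these shares describe the table. By entry, a CCAAT box stood in 74.2% of the 31 entries of the 26 genes and in 37.0% of the 8412 of all measured genes. The 26 come from lists chosen with earlier results known, and uncalled members of those lists were not counted. Whether the motif goes with the rise was therefore not tested. A match is a description and no test of binding.

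The 4 promoters below are of genes with some of the largest increases, from both pathways, and show how the motif sits. They read 5′ to 3′ along the strand of the gene, with matches to the SRE core or the CCAAT box, on either strand, in capitals. Hmgcs1 lies at chr13:119690101-119690400 on the plus strand, Idi1 at chr13:8885356-8885655 on the plus strand, Fasn at chr11:120824498-120824797 on the minus strand and Thrsp at chr7:97417501-97417800 on the minus strand.
Hmgcs1: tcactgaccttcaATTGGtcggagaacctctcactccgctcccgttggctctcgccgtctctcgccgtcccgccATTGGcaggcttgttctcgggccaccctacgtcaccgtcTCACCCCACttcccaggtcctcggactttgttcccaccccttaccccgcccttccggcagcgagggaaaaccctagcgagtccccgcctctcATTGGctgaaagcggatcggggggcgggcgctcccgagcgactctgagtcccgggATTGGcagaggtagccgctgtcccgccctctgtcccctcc
Idi1: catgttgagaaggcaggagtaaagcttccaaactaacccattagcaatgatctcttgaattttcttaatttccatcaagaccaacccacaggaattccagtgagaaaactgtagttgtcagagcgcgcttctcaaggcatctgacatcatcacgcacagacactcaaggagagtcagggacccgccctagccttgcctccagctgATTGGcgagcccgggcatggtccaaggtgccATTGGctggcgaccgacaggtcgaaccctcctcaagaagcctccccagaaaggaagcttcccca
Fasn: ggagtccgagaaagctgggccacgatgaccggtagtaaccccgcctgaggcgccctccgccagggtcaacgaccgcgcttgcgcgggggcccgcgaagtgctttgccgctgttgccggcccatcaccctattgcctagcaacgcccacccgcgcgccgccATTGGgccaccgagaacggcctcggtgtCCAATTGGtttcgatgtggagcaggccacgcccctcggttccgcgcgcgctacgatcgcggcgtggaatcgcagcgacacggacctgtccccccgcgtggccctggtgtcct
Thrsp: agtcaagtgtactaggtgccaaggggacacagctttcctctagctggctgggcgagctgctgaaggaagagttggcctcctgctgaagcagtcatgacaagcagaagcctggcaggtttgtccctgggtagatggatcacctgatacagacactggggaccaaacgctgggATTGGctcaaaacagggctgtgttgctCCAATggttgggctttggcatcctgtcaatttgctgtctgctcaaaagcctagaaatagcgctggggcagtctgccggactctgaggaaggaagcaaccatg
In Hmgcs1 the SRE core begins at -137 from the start site, and CCAAT boxes begin at -237, -176, -45 and 11, all as the reverse complement. Idi1 holds CCAAT boxes at -45 and -14, Fasn at -90, -62 and -59, the last pair overlapping, and Thrsp at -79 and -52. No entry of the last 3 has capitals for an SRE core, which says only that these letters are not in these windows.

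In glycerolipid synthesis, which turns fatty acids into triglyceride and phospholipid, 4 of 19 measured genes rose and 1 fell. Gpam, the mitochondrial acyltransferase that starts glycerolipid synthesis, went from 9.24 and 9.10 to 11.62 and 11.67 (5.56-fold, adjusted p = 3.27e-08). Lpcat3, which puts polyunsaturated chains into phospholipid, rose 2.66-fold, and the phosphatidate phosphatase Lpin1 went from 8.25 and 8.32 to 9.78 and 9.31 (2.39-fold). Lpin2 rose and the glycerol-3-phosphate dehydrogenase Gpd1 fell, at 0.63 and -0.60, each lost without 1 array (0.44 without replicate 1 of TgSREBP-1a, and -0.47 without replicate 2 of wild type). The last acylation step, Dgat1, differed by -0.21, and Gpat4, Agpat1 and Agpat5 by -0.27, -0.01 and -0.02, none called. With hepatocyte centring 9 genes of the list rose and none fell.

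Genes of the droplet and its lipases split. Cidea, a protein of droplet fusion that is scarce in normal liver, went from 5.44 and 5.61 to 7.45 and 7.67 (4.09-fold, adjusted p = 1.29e-06). Abhd5, the coactivator of adipose triglyceride lipase, went from 6.32 and 6.33 to 8.57 and 8.39 (4.46-fold), and G0s2, the inhibitor of that lipase, from 9.67 and 9.66 down to 6.52 and 6.83 (7.93-fold lower, adjusted p = 4.21e-08). Both genes thus separated the pools by more than 1.5 log2 units, in opposite directions. G0s2 read 7.31 and 7.31 in chow-fed wild type, so the wild type pool of this comparison was itself higher than the chow-fed one (2.36). G0s2 also fell in TgSREBP-2, to 7.47 and 7.53 (-2.16). Abhd5 was not called between the wild type pools (-0.38) or in TgSREBP-2 against wild type (0.05). The lipase itself, Pnpla2, differed by 0.28 ± 0.09 and was not called. Lpl, lipoprotein lipase, which adult hepatocytes make little of, went from 5.72 and 5.57 to 8.16 and 7.52 (4.57-fold). The droplet coat gene Plin2 read 12.22 and 12.23 in wild type and 12.33 and 12.26 in TgSREBP-1a and was not called. Of 11 measured genes of this list 3 rose and 1 fell, and with hepatocyte centring 5 rose and 1 fell.

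Few genes of SREBP processing were measured, 7 in all, of which 2 rose, and 3 with hepatocyte centring. Srebf1, the mouse gene of SREBP-1, read 8.68 and 8.70 in wild type and 10.57 and 10.52 in TgSREBP-1a. Its probes may or may not pick up human SREBP-1a RNA, so the gene is no check of the labels. Npc2, a lysosomal carrier of cholesterol, went from 8.60 and 8.35 to 10.27 and 10.16 (3.33-fold, adjusted p = 1.49e-06), while its partner Npc1 differed by -0.30 and was not called. Insig1, which holds SCAP in the endoplasmic reticulum, is a known SREBP target. It read 4.71 and 4.48 in wild type and 4.30 and 4.67 in TgSREBP-1a and was not called. The Insig1 probe set was dim, between 4.19 and 4.71 on all 10 arrays, so it says little about that gene.

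Of 17 genes of lipoproteins and sterol efflux 3 rose and 2 fell. Pltp, which moves phospholipid between lipoproteins, went from 7.75 and 7.53 to 10.70 and 10.45 (7.67-fold, adjusted p = 1.06e-07). Apoa4, an apolipoprotein of triglyceride-rich particles, went from 9.58 and 9.48 to 12.13 and 12.14 (6.08-fold), and Apoc2, the activator of lipoprotein lipase, from 10.96 and 10.98 to 11.74 and 11.91 (1.8-fold). The efflux transporters Abca1 and Abcg1 differed by -0.04 and 0.18, and the microsomal transfer protein Mttp by 0.31, none called. Apob and Apom were the 2 that fell. Apom fell by 0.83 on its brightest probe set and differed by -0.13 on its second, and neither fall remained with hepatocyte centring, when 5 genes rose and none fell.

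**Figure D3:**
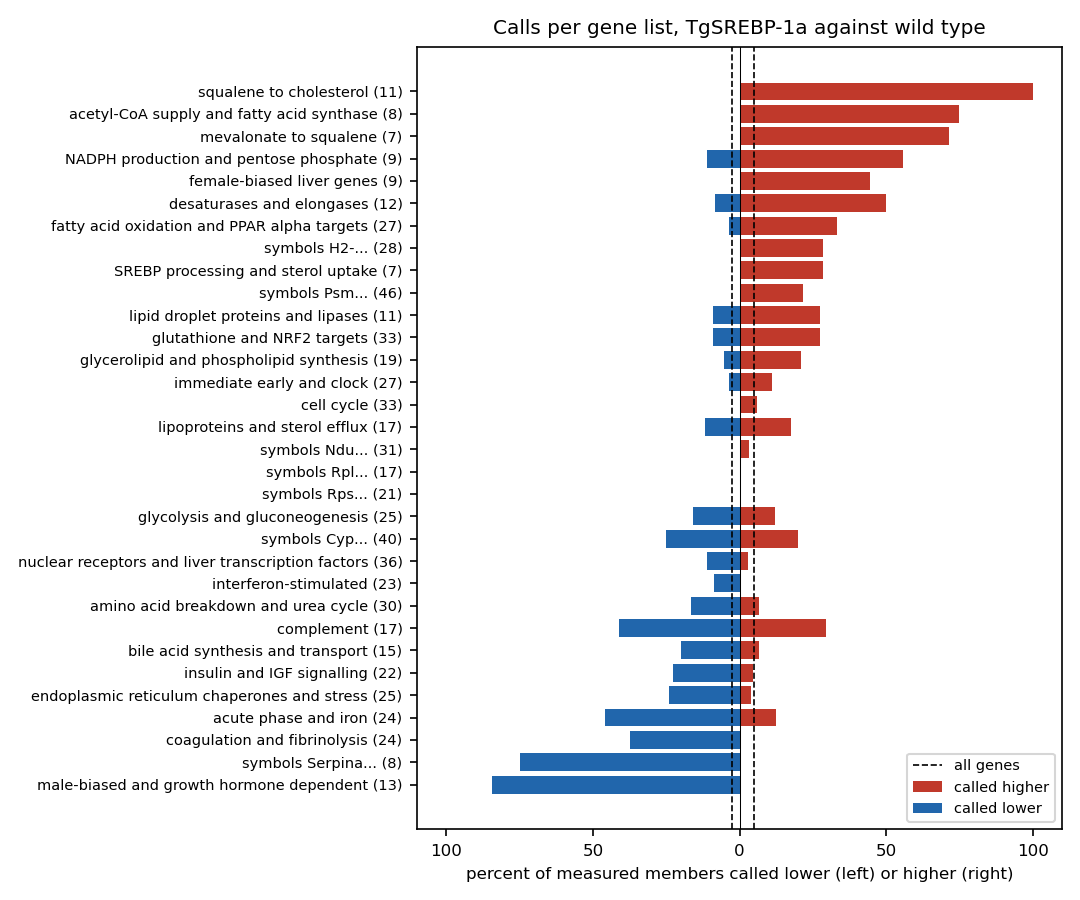
Each row is 1 gene list or symbol family with its number of measured genes, and the bars give the percent of those genes that rose (right) or fell (left) in TgSREBP-1a, with dashed lines at the shares over all genes, 4.78% and 2.59%. All 11 genes from squalene to cholesterol rose, 11 of 13 male-biased genes fell, and 10 of 46 genes with symbols in Psm rose.

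Growth hormone, released in sharp pulses in male mice, acts in liver through its receptor and STAT5 and sets the sex bias of many liver genes. Of 13 measured male-biased or growth hormone dependent genes 11 fell and none rose, with a median of -1.89 log2. With hepatocyte centring 9 fell and Cyp2c29 rose. Cyp7b1, the oxysterol hydroxylase, read 10.42 and 10.24 in wild type and 5.98 and 5.95 in TgSREBP-1a (20.6-fold lower, adjusted p = 2.58e-09), and its second probe set fell by 4.67. Ces3a, a carboxylesterase, went from 11.64 and 11.53 to 8.25 and 7.88 (11.5-fold lower). Hsd3b5, a steroid-metabolising enzyme of male liver, went from 8.18 and 7.70 to 5.21 and 5.30 (6.43-fold lower), and Car3, carbonic anhydrase 3, from 10.27 and 10.13 to 7.76 and 7.50 (5.93-fold lower). In each of these 4 the highest TgSREBP-1a array was below the lowest wild type array by more than 2 log2 units.

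Mup3, a major urinary protein, fell from 13.72 and 13.68 to 11.19 and 11.06 (5.95-fold), and Mup5 from 12.83 and 12.91 to 11.25 and 11.17 (3.16-fold). The Mup genes are near-identical copies, so these probes may read others of the family. Gstp1, Serpina12 and Egfr, the receptor of epidermal growth factor, were 3.7-, 3.53- and 3.86-fold lower. The other 2 measured, Cyp2c29 and Cyp2d9, were at 0.30 and -0.27 and not called. Lifr, the receptor of leukaemia inhibitory factor, outside this list but among the 25 largest decreases, read 10.28 and 10.05 in wild type and 7.78 and 7.42 in TgSREBP-1a (5.93-fold lower, adjusted p = 3.97e-07).

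Several genes of the growth hormone axis itself fell too. Ghr, the receptor, went from 8.78 and 8.52 to 7.62 and 7.47 (2.15-fold lower, adjusted p = 0.000115), and its second probe set differed by -0.61. Bcl6, a STAT5-regulated repressor, went from 6.57 and 6.53 to 5.48 and 5.49 (2.09-fold lower). Socs2, a feedback inhibitor of the receptor, went from 7.25 and 7.05 to 6.38 and 6.005, and was not called with hepatocyte centring (-0.54). Igfals, which carries IGF-1 in blood, fell by 1.16 on its brightest probe set and differed by -0.03 on its second. Igf1 was near the threshold at -0.59 ± 0.09 and lost its call without replicate 2 of either pool (-0.55 and -0.56) or with hepatocyte centring (-0.18). Stat5a and Stat5b differed by -0.05 and -0.42 and were not called.

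Of 9 measured female-biased genes 4 rose and none fell, and 5 rose with hepatocyte centring. Cyp2b9 went from 5.71 and 5.70 to 7.55 and 7.28 (3.26-fold), and Cyp2c39 from 8.05 and 8.01 to 10.13 and 9.96 (4.05-fold), P450s of families with near-identical members. Cyp17a1, an enzyme of steroid synthesis, rose 3.67-fold on its brightest probe set and by 0.37 log2, uncalled, on its second. Rtn4, a reticulon of the endoplasmic reticulum, rose 4.4-fold. The other 5, among them Cyp2b13, Hao2, Abcd2 and the female-specific repressor Cux2, lay between -0.08 and 0.32 log2 and were not called. The rise of female-biased genes was thus seen in part of the list, while most of the male-biased list fell.

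**Figure D4:**
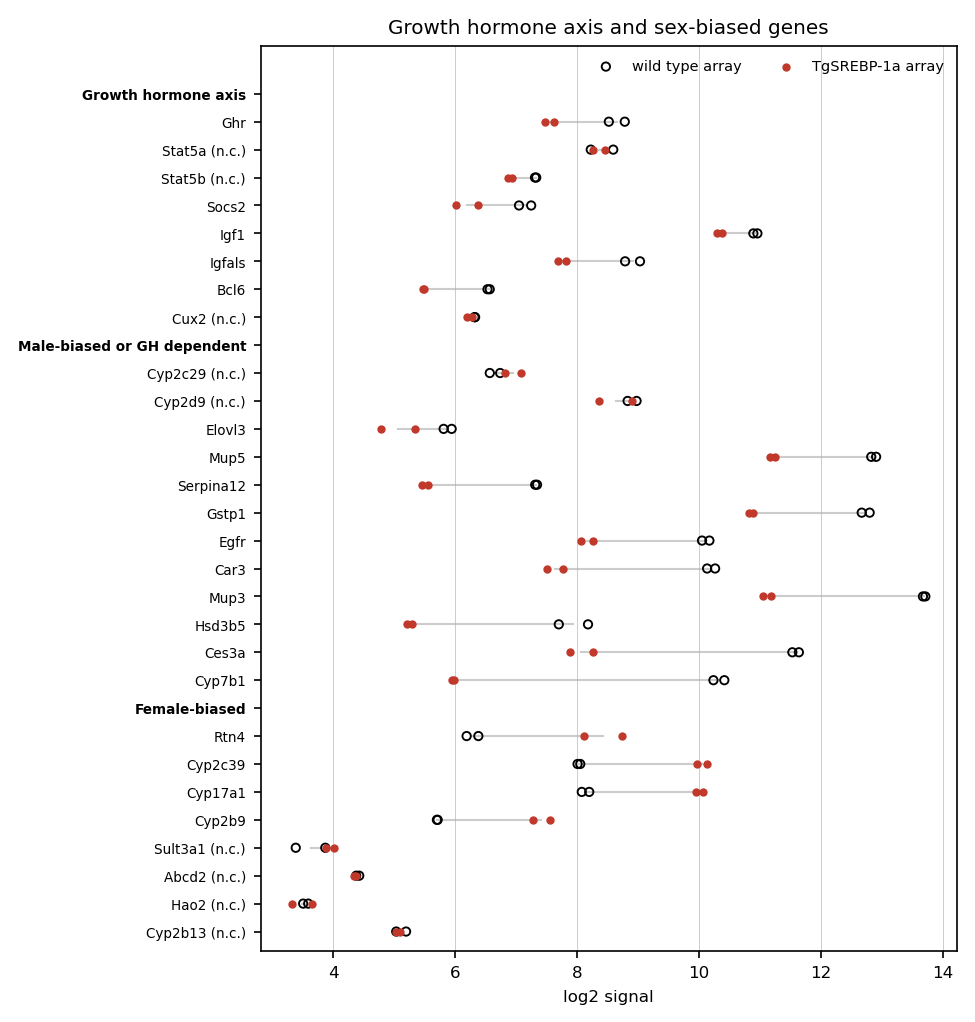
Each row is 1 measured gene of the growth hormone axis, the male-biased or the female-biased list, with its log2 signal on the x axis for the 2 wild type arrays (open) and the 2 TgSREBP-1a arrays (filled) and a line between the group means. Genes marked n.c. were not called. Cyp7b1 has the longest line, from 10.42 and 10.24 down to 5.98 and 5.95, and 4 female-biased genes lie to the right of their wild type arrays.

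Transcripts of many proteins that hepatocytes secrete into blood fell. In the complement list of 17 genes 7 fell and 5 rose. Of the 7, C9, the last component of the membrane attack complex, fell most, from 11.11 and 11.09 to 7.66 and 7.72 (10.7-fold, adjusted p = 5.11e-09). Hc, which encodes C5, went from 10.74 and 10.59 to 9.31 and 8.98 (2.87-fold lower), and the regulator C4bp from 9.88 and 9.71 to 8.82 and 8.49 (2.21-fold lower). These 3 were the ones still called with hepatocyte centring, which ended the calls of C1ra, C2, C8g and Serping1. C2 and C8g had second probe sets at 0.01, and C1ra was not called without replicate 2 of TgSREBP-1a (-0.54) or with wild type replicate 1 left out (-0.73). The 5 that rose include C1qa, C1qb and C1qc, which macrophages make, at 0.68, 1.09 (0.12 and uncalled on its second probe set) and 0.77, and Cfp, properdin of leukocytes, at 0.84. The summed signal of 13 macrophage markers, which include the 3 C1q genes, was also higher, at 5348 to 5886 against 3493 to 3595. It was 4397 to 4822 in TgSREBP-2, 4841 to 4934 in Scap-/- and 4835 to 5059 in chow-fed wild type, so the wild type pool of this comparison was the lowest of the 5. The part of macrophages in the C1q values was not tested.

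Of 24 coagulation and fibrinolysis genes 9 fell and none rose, with a median of -0.47. Proc, which encodes protein C, fell by 1.07 on its brightest probe set but was at 0.08 on its second. Serpinf2, antiplasmin, fell by 1.03 and differed by -0.26, uncalled, on its second probe set. Vtn, vitronectin, went from 11.63 and 11.52 to 10.56 and 10.65, and Serpind1, heparin cofactor 2, from 10.69 and 10.64 to 9.75 and 9.67, both uncalled with hepatocyte centring. That centring left 2 of the 9 called and made 1 gene rise. Thrombin, F2, read 11.09 and 11.02 in wild type and 10.92 and 10.55 in TgSREBP-1a, and antithrombin, Serpinc1, 11.77 and 11.66 against 11.63 and 11.57, and neither was called.

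In the Serpina family, inhibitors of serine proteases, 6 of 8 measured genes fell, and 3 with hepatocyte centring. Serpina3n, an acute phase inhibitor, went from 11.92 and 11.89 to 10.06 and 9.97 (3.7-fold lower), and Serpina10, the protein Z inhibitor, from 10.44 and 10.26 to 9.23 and 8.98 (2.36-fold lower). Chow-fed wild type read 10.54 and 10.55 for Serpina3n. Serpina1b, Serpina1c and Serpina1e, antitrypsin copies that cannot be told apart with confidence, were at -0.83, -0.89 and -0.98. Serpina1c had the highest signal of all genes on both wild type arrays, and whether signals of this height still follow the amount of RNA was not tested.

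Of 24 acute phase and iron genes 11 fell and 3 rose, and with hepatocyte centring 8 fell and 6 rose. Saa4, a constitutive serum amyloid of lipoproteins, went from 8.36 and 8.06 to 6.20 and 6.21 (4.02-fold lower, adjusted p = 4.88e-06). Saa2, the inducible one, went from 11.96 and 11.81 to 10.50 and 10.54 (2.58-fold lower). Haptoglobin, Hp, went from 13.15 and 13.07 to 11.87 and 11.81, and transthyretin, Ttr, from 10.30 and 10.15 to 8.96 and 8.75 (2.41- and 2.59-fold lower). Itih3 and Itih4, heavy chains of inter-alpha-trypsin inhibitor, were 2.64- and 2.76-fold lower and the pentraxin Apcs 2.23-fold lower. Against this run, Orm2, an orosomucoid, went from 10.23 and 10.13 to 12.28 and 12.24 (4.22-fold higher), Hamp, hepcidin, from 10.11 and 10.13 to 10.93 and 11.12 (1.88-fold higher), and Lcn2 rose by 0.82 on its brightest probe set but was at -0.11 on its second. Mt1, a metallothionein, fell by 0.61, which did not pass with hepatocyte centring. Against chow-fed wild type, the wild type pool of this comparison was higher in Mt1 (5.19), Saa2 (2.99), Orm2 (1.98) and Lcn2 (1.55). It was lower in Hamp (-0.96) and Ttr (-0.69), and Saa4, Hp and Apcs were not called. Saa2 read 8.74 and 9.05 in chow-fed wild type, under its TgSREBP-1a arrays. The part of the hepatocyte marker sum given above, which shares Hp, Ttr and Alb with this list and Ahsg and Fgb with the coagulation list, was not tested. Pigr, the receptor that carries IgA into bile, was among the 25 largest decreases, from 12.04 and 11.95 to 9.17 and 8.89 (7.79-fold lower).

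In bile acid synthesis and transport 3 of 15 measured genes fell and 1 rose. Cyp7a1, the rate-limiting enzyme of the classical pathway, read 6.17 and 6.21 in wild type and 5.82 and 5.80 in TgSREBP-1a and was not called, whereas Cyp7b1 of the alternative pathway fell as above. Cyp8b1, which directs synthesis to cholic acid, fell by 0.86 ± 0.09, and Baat, which conjugates bile acids, by 0.98 ± 0.10. With hepatocyte centring these last 2 were at -0.45 and -0.57 and not called, and 2 genes of the list rose and 1 fell. Abcc3, a basolateral exporter, rose from 9.06 and 9.01 to 9.86 and 10.0004 (1.86-fold). Without replicate 1 of TgSREBP-1a 5 genes of the list fell. Cyp2c70, which makes the muricholic acids of mice, was not in the list and fell from 10.71 and 10.44 to 8.74 and 8.36 (4.07-fold, adjusted p = 4.88e-06).

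Of 25 genes of glycolysis and gluconeogenesis 3 rose and 4 fell. Pck1, phosphoenolpyruvate carboxykinase, whose promoter is also that known for the transgene, read 10.35 and 10.24 in wild type and 8.80 and 8.48 in TgSREBP-1a (3.16-fold lower, adjusted p = 4.18e-06). G6pc, which releases free glucose, went from 10.98 and 10.96 to 9.73 and 9.65 (2.44-fold lower). Both stayed called with hepatocyte centring, when 9 genes rose and 2 fell, while pyruvate carboxylase Pcx (-0.41) and lactate dehydrogenase Ldha (-0.58) did not. The second probe set of Pcx differed by -0.23. Aldoc and Tpi1, of glycolysis, rose 2.35- and 1.62-fold. The liver pyruvate kinase Pklr read 8.40 and 8.16 against 8.66 and 8.58 and was not called on its brightest probe set, but rose by 1.20 on its second probe set.

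Of 22 genes of insulin and IGF signalling, which include the growth hormone genes above, 5 fell and 1 rose. Igfbp1, an IGF-binding protein that insulin represses, rose by 1.40 on its brightest probe set and was at -0.35 on its second. The insulin receptor Insr and its substrates Irs1 and Irs2 differed by -0.35, 0.12 and -0.43 and were not called. With hepatocyte centring 3 genes of this list rose and 2 fell.

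In amino acid breakdown and the urea cycle 5 of 30 genes fell and 2 rose. Otc, of the urea cycle, went from 10.13 and 9.87 to 8.64 and 8.32 (2.86-fold lower, adjusted p = 2.87e-05), and Hal, which starts histidine breakdown, from 9.19 and 9.16 to 7.86 and 7.90 (2.46-fold lower). Cps1, the step before Otc, read 12.66 and 12.53 against 12.80 and 12.54, arrays that overlapped, and Ass1, Asl and Arg1, the steps after it, differed by 0.30, 0.01 and 0.17, none called. Tat, tyrosine aminotransferase, rose from 11.82 and 11.74 to 12.69 and 12.41 (1.71-fold). Otc and Hal were the 2 that remained lower with hepatocyte centring, when 6 rose.

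PPAR alpha, the receptor that turns on fatty acid oxidation in fasting, was itself lower, while several of its inducible targets were higher. Ppara read 9.75 and 9.37 in wild type and 8.43 and 8.21 in TgSREBP-1a (2.36-fold lower, adjusted p = 0.000105). Chow-fed wild type read 8.58 and 8.60 for Ppara, so the wild type pool of this comparison was itself higher than the chow-fed one (0.97). Ehhadh, the bifunctional enzyme of peroxisomes, went from 7.79 and 7.36 to 10.27 and 9.86 (5.63-fold higher, adjusted p = 3.71e-06). Cyp4a14 and Cyp4a10, which hydroxylate fatty acids at the end of the chain, went from 9.35 and 9.04 to 11.63 and 11.13 and from 9.11 and 8.92 to 10.60 and 10.26 (4.54- and 2.67-fold). Acot1, a thioesterase, rose 2.21-fold and Hsd17b4, another peroxisomal enzyme, 1.97-fold. Pdk4, of the same list, differed by -0.17 and was not called.

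The mitochondrial part of oxidation was mostly uncalled. Cpt1a, its entry step, read 10.60 and 10.47 against 9.97 and 10.01, and Acadm, Acadvl and Hadhb differed by 0.25, -0.14 and 0.31. The Acadvl probe set was dim, between 4.20 and 4.53 on all 10 arrays, so it says little about that gene. In the whole list of 27 genes 9 rose and 1 fell. The 9 include Decr1 and Vnn1, which each lost the call without 1 of several arrays (lowest 0.40 and 0.31), and with hepatocyte centring 20 rose.

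Of 40 measured P450 genes 8 rose and 10 fell, and 13 and 6 with hepatocyte centring. Besides those already described, Cyp3a11, the main drug-metabolising P450 of mouse liver, went from 9.94 and 9.76 to 11.98 and 11.72 (3.998-fold higher). Cyp1a2, of caffeine and arylamine metabolism, went from 10.53 and 10.62 to 8.88 and 8.89 (3.23-fold lower), Cyp2f2 was 3.55-fold lower and Cyp4v3 3.35-fold lower. Nr1i3, the nuclear receptor CAR, fell by 0.97, and by 1.18 on its second probe set, though not called with hepatocyte centring (-0.56). PXR, Nr1i2, differed by 0.14 and was not called.

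Of 33 genes of glutathione metabolism and NRF2 targets 9 rose and 3 fell, and with hepatocyte centring 13 rose and 1 fell. Gstm3, a glutathione transferase, went from 9.20 and 9.08 to 11.37 and 11.18 (4.4-fold), Gstt2 from 8.06 and 7.75 to 9.46 and 9.39 (2.86-fold), and Gpx3, a secreted glutathione peroxidase, from 7.09 and 7.08 to 8.23 and 8.07 (2.09-fold). The Gstm genes are close copies, and Gstm1 and Mgst3 rose on their brightest probe sets (0.98 and 1.12) but were at 0.03 and -0.17 on the second. Nqo1, Txnrd1 and Hmox1, classical NRF2 targets, differed by 0.22, -0.04 and -0.48 and were not called.

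Of 36 nuclear receptors and liver transcription factors 1 rose and 4 fell, and with hepatocyte centring 3 rose and 2 fell. Cebpd rose from 6.58 and 6.26 to 7.46 and 7.07. The 4 that fell are Ppara, Bcl6 and Nr1i3, given above, and Cebpa (-0.77 ± 0.08), whose call ended with hepatocyte centring. Hnf4a, the oxysterol receptor LXR alpha (Nr1h3) and the bile acid receptor FXR (Nr1h4) differed by -0.31, -0.07 and -0.56 and were not called.

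Subunits of the proteasome, the protease that degrades ubiquitin-tagged proteins, leaned upward. Of 46 measured genes with symbols that begin with Psm, 10 rose and none fell, with a median of 0.39 log2 against -0.03 for all genes. Psmb5, a catalytic subunit, went from 7.59 and 7.33 to 9.01 and 8.57 (2.51-fold, adjusted p = 0.00122), Psmd8, of the regulatory particle, from 7.72 and 7.74 to 8.71 and 8.65 (1.93-fold), and Psmd14, its deubiquitinase, from 6.97 and 6.74 to 7.87 and 7.63 (1.85-fold). The subunits of the immunoproteasome, Psmb8, Psmb9 and Psmb10, were at -0.23, 0.02 and -0.28 and not called. The count was 9 to 15 without 1 array and 28 with hepatocyte centring.

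In the endoplasmic reticulum list 6 of 25 genes fell and 1 rose, and 3 fell without replicate 1 of wild type. With hepatocyte centring 1 fell and 2 rose. Creld2 and Manf, both induced by protein misfolding, fell by 0.97 and 0.87, and Dnajb11, a chaperone of the lumen, by 0.87, each uncalled with hepatocyte centring. Xbp1 fell by 1.03 ± 0.24 and Hspa5, the chaperone BiP, by 0.95 ± 0.21, calls that ended without replicate 1 of wild type (-0.79 and -0.80), and for Xbp1 also without replicate 2 of TgSREBP-1a (-0.68). Ddit3 and Atf4, of the stress response, were at -0.0029 and -0.04.

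Of 28 histocompatibility genes with symbols that begin with H2-, 8 rose and none fell, and 13 rose with hepatocyte centring. H2-Q1 went from 5.64 and 5.61 to 9.09 and 8.67 (9.53-fold, adjusted p = 3.24e-08). The other 7 rose by 0.69 to 1.04 log2, among them H2-K1 (0.69) and H2-D1 (0.71). Chow-fed wild type read 6.01 and 6.09 for H2-Q1. For H2-Aa TgSREBP-1a read 8.65 and 8.52 and chow-fed wild type 8.69 and 8.69. H2-K1 read 12.85 and 12.70 against 12.63 and 12.54. Of the 8, H2-Aa and H2-Q5 were called lower in the wild type pool of this comparison than in chow-fed wild type (-0.87 and -0.74). H2-Q4 and H2-Q5 also rose in TgSREBP-2 (0.85 and 0.94). Members of this family are near copies that probes may not tell apart. Of 23 measured interferon-stimulated genes 2 were called (8.70%, near the 7.37% of all genes). Both fell, Ifi47 (-0.83) and Igtp (-0.62), neither called with hepatocyte centring, when 7 genes of the list rose. Of the 23, 10 had an unadjusted p under 0.05 by limma, as had 2445 of all 8251 genes.

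Markers of other cell types were read in the same pools. Besides the C1q genes the macrophage markers that rose were Cd5l, from 7.43 and 7.23 to 9.09 and 8.64 (2.89-fold), Lyz2 and Ctss, the last 2 not called without replicate 1 of TgSREBP-1a (0.54 and 0.57). Ctss was not called with wild type replicate 2 left out either (0.74), and Lyz2 was at 0.18 on its second probe set. Clec4f, Marco and Adgre1, which mark resident macrophages, were at 0.48, 0.46 and 0.30, and not called, though all 13 of the list were with hepatocyte centring. Of 7 endothelial markers Lyve1 (1.09) and Cdh5 (0.72) rose, Cdh5 not without replicate 1 of TgSREBP-1a (0.58), and the list's sum was 1396 to 1430 against 1168 to 1177, with 1112 to 1143 in TgSREBP-2, 1343 to 1353 in Scap-/- and 1395 to 1479 in chow-fed wild type. Of 10 stellate cell markers Sparc rose (0.81), and the sums were 2242 to 2377 against 2135 to 2148. The stellate cell list was mixed. Col3a1 and Col1a1 differed by 0.55 and 0.40, and Acta2, Des and Tagln by -0.52, -0.36 and -0.26, none called. With hepatocyte centring 4 endothelial and 3 stellate cell markers rose. The rise of Ighm among 8 lymphocyte markers (1.42) was absent from its second probe set (-0.14). Of 3 red cell markers Hba-a1, an alpha globin with a near-identical copy, rose from 11.38 and 11.23 to 11.94 and 11.998 (adjusted p = 0.000194), whereas Alas2, which starts haem synthesis in red cell precursors, fell from 8.13 and 8.22 to 7.46 and 7.66 (adjusted p = 0.000811). Alas2 was not called without replicate 1 of TgSREBP-1a (-0.52) or replicate 2 of wild type (-0.58), nor with hepatocyte centring. The summed signal of the 3 was 4172 to 4345 against 2768 to 3006, and 4568 to 4628 in TgSREBP-2. The third, Slc4a1, the anion exchanger of red cells, differed by -0.20 and was not called. None of 7 neutrophil, 3 cholangiocyte or 4 adipocyte markers was called by limma, and 1, 0 and 4 of them had an unadjusted p under 0.05. Over all 8251 genes 2445 had such a p. With hepatocyte centring 1 neutrophil and 1 adipocyte marker rose.

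Several of the largest decreases came from digestive enzymes that the exocrine pancreas makes. Of 10 measured markers 9 fell, and their summed signal was 1650 to 1676 in TgSREBP-1a against 16910 to 17060 in wild type. It was 22760 to 23210 in TgSREBP-2, 2066 to 2189 in Scap-/- and 8470 to 8670 in chow-fed wild type. The sum was thus low in 2 of the 5 pools and differed between both wild type pools. Prss2, a trypsinogen, read 11.22 and 11.19 in wild type and 5.64 and 5.66 in TgSREBP-1a (47.0-fold lower), Ctrb1, a chymotrypsinogen, 12.81 and 12.90 against 8.57 and 8.63 (19.1-fold lower), and Cela1, an elastase, 11.34 and 11.37 against 8.15 and 8.22 (9.01-fold lower). Reg1 fell by 1.62 on its brightest probe set and differed by -0.04 on its second. The skeletal muscle actin Acta1 likewise fell, from 9.04 and 8.60 to 5.59 and 5.82 (8.65-fold), and read 8.80 and 8.99 in Scap-/- and 6.17 and 6.24 in chow-fed wild type. How much pancreas or muscle each pool held was not tested.

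Of 33 cell cycle genes 2 rose and none fell, a called share of 6.06% that is near the 7.37% of all genes. With hepatocyte centring 5 rose. Ccnd1, cyclin D1, rose by 1.79 on its brightest probe set and by 0.03 on its second, and Myc by 0.66, not called without replicate 1 of TgSREBP-1a (0.53) or with wild type replicate 2 left out (0.58). Mki67 and Top2a, which mark dividing cells, differed by -0.13 and 0.11. Of 27 immediate early and clock genes 3 rose and 1 fell, and with hepatocyte centring 8 rose and 1 fell. Klf6 rose from 6.07 and 5.93 to 7.32 and 6.88 (2.13-fold), and Cxcl1, a neutrophil chemokine, fell from 7.89 and 7.56 to 6.65 and 6.01 (2.62-fold). The clock outputs Dbp, Per1, Per2 and Nr1d1 were at 0.04, -0.03, 0.14 and -0.07 and were not called.

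Some of the 25 largest increases fall in none of the lists. Rdh16, a retinol dehydrogenase, went from 7.06 and 6.996 to 10.25 and 9.87 (8.15-fold). Pla2g7, which degrades platelet-activating factor, went from 4.65 and 4.50 to 7.03 and 7.03 (5.49-fold), and Ddit4, an inhibitor of mTORC1, from 6.17 and 5.92 to 8.60 and 8.41 (5.52-fold). Pdzk1ip1, a small membrane protein, rose 6.05-fold and Sprr1a, a protein of the cornified envelope, 4.69-fold. Ly6d went from 7.77 and 7.46 to 11.01 and 10.99 on its brightest probe set, but fell by 0.68 log2 on its second, so its direction is unsettled. Among the decreases, Slc22a30, an organic anion transporter, went from 8.65 and 8.21 to 5.53 and 5.08 (8.72-fold lower) and Ces1c, a secreted carboxylesterase of plasma, from 10.37 and 10.38 to 7.99 and 7.77 (5.66-fold lower).

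Agreement between probe sets could be checked for 130 called genes with at least 2. The second probe set had the same direction in 105 and was called the same way in 48. It was called the opposite way in 2, Ly6d and Srxn1, the latter at -0.88 on its brightest probe set and 1.20 on its second.

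The direct contrast with the TgSREBP-2 pool, on the same diet, tests which values were larger with SREBP-1a. It called 428 genes (5.19%), of which 185 were higher with SREBP-1a (2.24%) and 243 lower (2.95%). Of the 8 genes of acetyl-CoA supply and fatty acid synthase 4 were higher than in TgSREBP-2 and none lower. Acss1 read 5.31 and 5.28 in TgSREBP-2, 2.97 ± 0.16 log2 under its TgSREBP-1a level (adjusted p = 8.92e-07), and Thrsp 9.33 and 9.32, a difference of 2.73 ± 0.09. Fasn read 11.28 and 11.19, a difference of 1.05 ± 0.11 (adjusted p = 7.93e-05), Elovl6 1.66 ± 0.12 and Me1 1.60 ± 0.13. Of the 12 desaturases and elongases 5 were higher and none lower, and of the 9 NADPH genes 4 were higher and 1 lower.

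Cholesterol genes ran the other way or did not pass in the same contrast. From acetyl units to squalene none was higher and 3 of 7 were lower in TgSREBP-1a, and from squalene to cholesterol none was higher and 7 of 11 lower. Idi1 read 12.40 and 12.29 in TgSREBP-2, so that TgSREBP-1a lay -1.66 ± 0.09 log2 from it (adjusted p = 5.79e-07), and Cyp51 9.73 and 9.55, a difference of -0.97 ± 0.17. Fdps and Dhcr7 differed by 0.19 ± 0.08 and -0.17 ± 0.20 and were not called. Among the genes with large decreases, Cyp7b1 read 10.04 and 9.78, Ces3a 10.99 and 10.85, C9 11.18 and 10.94 and Lifr 10.08 and 9.88 in TgSREBP-2, differences of -3.95, -2.85, -3.37 and -2.38, all called lower. Of the 13 male-biased genes 7 were lower in TgSREBP-1a than in TgSREBP-2 and none higher, and all 4 of the female-biased genes that rose were higher.

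The Scap-/- pool and its own chow-fed controls share no array with these comparisons. The same fit gives each gene 1 variance for all of them, so the calls are not fully independent. The knockout removes SREBP release, whereas the transgene adds nuclear SREBP-1a that skips it. In that comparison 137 genes were called (1.66%), 61 higher (0.739%) and 76 lower (0.921%). Of the 76 lower, 41 (53.9%) rose in TgSREBP-1a, which is 10.4% of the 394 that rose there. Of the 61 higher, 12 (19.7%) fell in TgSREBP-1a, 5.61% of the 214. These 12 include the muscle genes Acta1, Myh1, Myl1, Myl3 and Tnnt3, and Krt4, Krt13 and Sprr3 of stratified epithelium. The rest are Car14, Cxcl1, Gsn and Mt1. The part of other tissue in the pools was not tested. The same direction in both was found in 19 genes that were higher (4.82% of 394 and 31.1% of 61) and in 23 that were lower (10.7% of 214 and 30.3% of 76).

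Among the 41 genes that rose with SREBP-1a and fell without Scap, 24 belong to the lists of lipid synthesis and NADPH supply. Idi1 read 10.54 and 10.55 in chow-fed wild type and 7.92 and 8.04 in Scap-/- (-2.57 ± 0.09, adjusted p = 7.82e-08), Fdps 12.02 and 12.12 against 9.60 and 9.54, and Fasn 10.10 and 10.21 against 8.53 and 8.57 (-1.61 ± 0.11). Thrsp, Msmo1 and Scd1 differed by -2.18, -2.35 and -2.26. Outside the synthesis lists the 41 hold Tmem97, a sterol-regulated membrane protein (1.90 and -0.98), Acsl5, an acyl-CoA synthetase (2.09 and -0.81), Dbi, the acyl-CoA-binding protein (1.26 and -1.09), Aldoc (1.23 and -0.78), Csad, of taurine synthesis (1.02 and -0.89), and Cyb5b, a cytochrome b5 (1.44 and -0.93), where the first value of each pair is the TgSREBP-1a difference.

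Large increases in TgSREBP-1a did not all have a counterpart in the knockout. Scd2 read 6.32 and 6.38 in chow-fed wild type and 6.17 and 6.13 in Scap-/-, and Acss1 4.98 and 5.21 against 5.33 and 5.19, both uncalled (-0.20 ± 0.09 and 0.17 ± 0.16). Pltp and Rdh16 differed there by -0.41 and 0.32, uncalled as well. Apoa4 rose in both, by 2.61 and 1.91. The male-biased genes Cyp7b1 and Hsd3b5 differed by -0.04 ± 0.11 and -0.39 ± 0.15 in the knockout and were not called. Some decreases were shared, however. The 23 genes lower in both include Bcl6 and Socs2 of the growth hormone axis (-0.77 and -0.73 in the knockout). Hsd3b2 (-0.96), Cyp2c70 (-1.13) and Hal (-0.59) were lower there too. The 23 also include 9 listed markers of exocrine pancreas, and Clps and Zg16 outside that list.

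**Figure D5:**
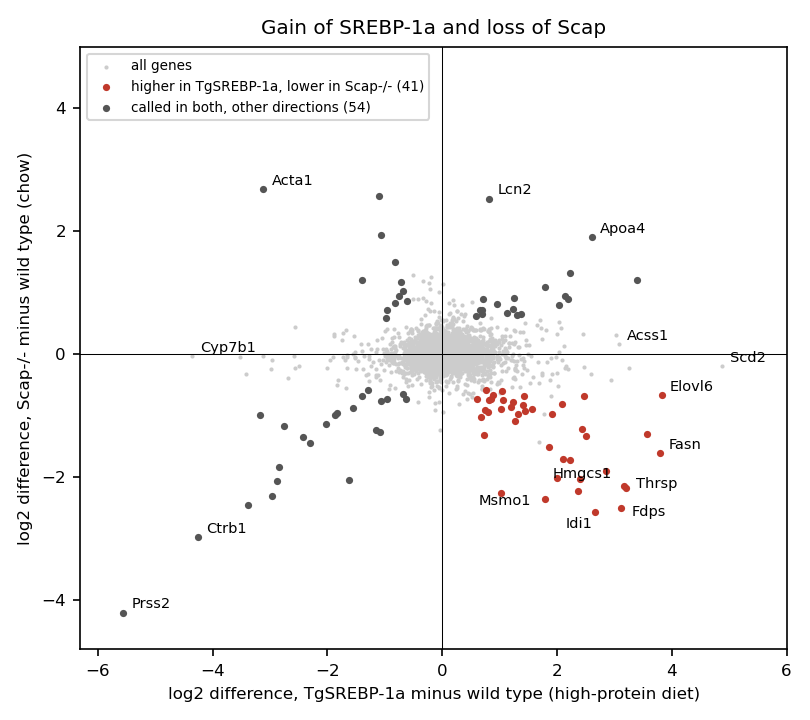
Each point is 1 of 8251 genes, with its log2 difference TgSREBP-1a minus wild type (high-protein diet) on the x axis and Scap-/- minus wild type (chow) on the y axis. The 41 coloured genes rose in TgSREBP-1a and fell in Scap-/-, and the 54 dark points were called in both comparisons in other directions. Idi1, Fdps and Msmo1 lie at the bottom right, and Scd2 and Acss1 lie far right near 0 on the y axis.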

How the data were processed

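Liver RNA was measured on 10 arrays, 2 hybridisations of each of 5 pools of 5 mice. The authors deposited 1 table of log2 signals, made with RMA per the submitters' processing notes, which state no version. The series' design text names Microarray Suite 5.0 instead, which gives linear signals. The values fit a log2 scale normalized between arrays, and such normalization can hide a shift shared by most genes. The number of arrays limits the precision.

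Of 12488 probe sets, 66 controls, 396 with several gene symbols and 1193 with none were left out. Symbols came from the platform annotation, updated through RefSeq for 10817. Each of 8251 genes was represented by its brightest probe set, a choice made for 2073 genes. All 10 arrays entered a single limma fit (version 3.58.1 under R 4.3.3, functions lmFit and eBayes) with 1 coefficient per group, no block and 5 residual degrees of freedom, with Benjamini-Hochberg adjustment over the 8251 genes in each contrast. The fit shares 1 variance per gene over groups. The fit was tested on simulated data.

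The alternatives were other sets of arrays, a replicate block, dim genes left out (mean under 6), other probe sets of a gene, 32 added to the linear signal, a further quantile normalization, centring on hepatocyte markers, a variance trend, other fold limits and each array left out. Same-numbered arrays deviated together among the 3 high-protein pools (correlations 0.457, 0.599 and 0.608), and were treated as pairs in the replicate block. This pairing comes from the data.

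Named are the 25 largest increases and 25 largest decreases among called genes with 1 sign in all array pairs, and members of the gene lists. The comparison, lists and markers were chosen with earlier results of these data known. Families defined by symbol, genes called in both the TgSREBP-1a and Scap comparisons, and Hsd3b5 in the knockout were named after their values were seen. Promoter sequences are from RefSeq.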

Additional observations from a re-analysis of the deposited data

Results flagged for a closer look

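Probe sets without a single gene symbol stand outside the gene comparison, and some of them also separated the pools. Of 1589 such probe sets 78 passed the call (4.91%), of which 45 rose and 33 fell. The lowest were probe sets shared by the amylase genes Amy2a and Amy2b, at -8.08 and -6.07 log2, and 1 shared by the trypsinogens Try5 and Try4, at -5.02. A probe set shared by the P450 genes Cyp2c50 and Cyp2c37 was at -2.62, and 1 shared by Cyp2a5 and Cyp2a4 was at 3.005. The largest increase, 3.75, came from a probe set with no gene symbol in the annotation used.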

How the results depend on the processing

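The main call gave 394 genes higher and 214 lower. Centring on hepatocyte markers gave 1646 and 87, a 2-fold limit 153 and 87, and an adjusted p alone 810 and 556. Leaving out 1 array gave 311 to 535 higher and 192 to 267 lower. The replicate block gave 401 and 217 and changed no call of the 548 named genes. The other alternatives for the counts stayed within 1.5 times. Of the 195 named genes that were called, 29 lost the call without 1 array. The sign turned on the second brightest probe set of Ly6d (-0.68), Pgd (-0.022), Igfbp1 (-0.35), Oat (-0.13), C2 (0.014), C8g (0.0073), Proc (0.076), Lcn2 (-0.11), Srxn1 (1.20), Gstm2 (1.18), Mgst3 (-0.17) and Ighm (-0.14), and for Srxn1 with the mean of its probe sets (0.16). The cause was not tested. With 1 pool per group, no result carries the variation between mice, and signal over background limits dim genes.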
